A study of Homo sapiens with 7 samples.

Results

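The G1 checkpoint genes described here are the D-type cyclins CCND1, CCND2 and CCND3, the CDK inhibitors CDKN1B, CDKN1C, CDKN2A, CDKN2B, CDKN2C and CDKN2D, and RB1, the retinoblastoma protein gene that these cyclins and inhibitors act on. Every gene probe whose accession was paired with one of these symbols was taken, which gave 12 probes of 10 genes among 42405 gene probes and 19063 named genes. They were measured on 7 single-colour Agilent expression arrays of NCI-H520, an established cell line from a human squamous cell lung carcinoma, with 1 array per group. All cultures received 6 µg of a pLKO.1 plasmid by cationic liposomes, puromycin at 6 µg/mL from 12 h on, and were harvested at 72 h. The control cultures received either the empty vector or a non-target shRNA, which matches no known gene. The other cultures received an shRNA against a deadenylase, one of the nucleases that trim poly(A) tails: PARN, CNOT6, CNOT6L, CNOT7 or NOC (nocturnin, gene NOCT). Untransfected cells were not analysed here. The labels name the same target accession for the CNOT6L and the NOC plasmid.

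In mid G1, D-type cyclins bind CDK4 or CDK6, and the active kinases phosphorylate RB1, which then releases the E2F factors that switch on genes of DNA replication. INK4 proteins (the CDKN2 genes) bind CDK4 and CDK6 and keep the cyclin from them, whereas CIP/KIP proteins (CDKN1B, which encodes p27, and CDKN1C, which encodes p57) bind whole cyclin-CDK complexes, mainly those of CDK2. Loss or silencing of the CDKN2A locus is common in squamous lung cancer, and p27 is known for control at the level of protein turnover and translation as well as mRNA. CNOT6L, a catalytic subunit of the CCR4-NOT deadenylase complex, has been linked to CDKN1B mRNA, which is the question behind the comparison given first.

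Sequence upstream of the start is shown for the genes whose probes bear on that question (CDKN1B) or on the INK4 locus, where CDKN2A has separate starts for its p16 and ARF transcripts and lies beside CDKN2B. The windows are the 250 bases before the annotated start in RefSeq on build GRCh38.p14, written 5′ to 3′ on the strand of the gene, with GC boxes (GGGCGG or its reverse complement CCGCCC) in capitals.
CDKN1B, chr12:12717118-12717367, plus strand: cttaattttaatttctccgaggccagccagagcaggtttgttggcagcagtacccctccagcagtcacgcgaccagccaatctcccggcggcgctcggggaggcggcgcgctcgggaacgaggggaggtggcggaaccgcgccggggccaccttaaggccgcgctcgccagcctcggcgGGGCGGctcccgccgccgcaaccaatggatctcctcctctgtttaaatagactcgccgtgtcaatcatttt
CDKN2A, first entry, chr9:21995325-21995574, minus strand: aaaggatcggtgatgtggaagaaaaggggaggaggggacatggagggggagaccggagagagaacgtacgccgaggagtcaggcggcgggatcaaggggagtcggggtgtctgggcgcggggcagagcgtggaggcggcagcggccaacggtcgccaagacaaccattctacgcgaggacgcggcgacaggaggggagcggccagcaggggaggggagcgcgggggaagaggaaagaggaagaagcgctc
CDKN2A, second entry, chr9:21974858-21975107, minus strand: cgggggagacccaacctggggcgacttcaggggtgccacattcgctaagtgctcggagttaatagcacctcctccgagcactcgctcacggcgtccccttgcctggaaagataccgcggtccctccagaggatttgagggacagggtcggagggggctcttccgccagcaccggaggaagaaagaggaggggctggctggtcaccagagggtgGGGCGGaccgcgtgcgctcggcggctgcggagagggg
CDKN2B, chr9:22009306-22009555, minus strand: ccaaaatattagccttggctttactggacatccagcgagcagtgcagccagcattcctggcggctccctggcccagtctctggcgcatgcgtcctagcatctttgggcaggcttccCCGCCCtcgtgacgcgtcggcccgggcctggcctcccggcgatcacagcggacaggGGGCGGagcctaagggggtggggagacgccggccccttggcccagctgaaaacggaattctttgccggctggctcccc
The CDKN1B window held 1 GC box and 2 CCAAT boxes (CCAAT or ATTGG). The CDKN2A entries lay 20467 bases apart and held 0 and 1 GC boxes, and the CDKN2B window held 2. RefSeq windows were at hand for 7 of the 10 genes, with 12 entries. A GC box was found in 8 of these 12 entries and in 42.6% of all 35116 windows, and a CCAAT box in 5 and in 32.0%. These 12 include an entry for RB1 that lies inside the gene, far from its annotated start, and held 0 of either box. The letters TTTNNCGC or GCGNNAAA, an E2F-type motif, were found in 1 entry, that of CDKN2D, and in 5.92% of all windows. CDKN1C, CCND1 and CCND2 had no entry.

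Levels are given as the log2 of the processed signal relative to the 75th percentile of the same array, so that 0 is that percentile. A level serves to compare arrays for 1 probe and not 1 probe with another. All 12 probes were well above background on all 7 arrays, and 0 were saturated. Between 82.0% and 91.4% of all gene probes were above background per array, and the 75th percentile of the signal lay between 1360 (CNOT6 shRNA) and 3939 (CNOT7 shRNA). The arrays lay on 1 slide. Row 1 held both controls and the PARN and CNOT6 shRNA arrays, and row 2 held the CNOT6L, CNOT7 and NOC shRNA arrays with no control, so that the slide row cannot be told apart from these 3 shRNAs. All arrays were scanned together, and per the file headers the image of the NOC shRNA array was quantified on another day than the others. On its own array the targeted mRNA stood at 45.7% of the control mean for PARN, 89.5% for CNOT6, 63.0% and 57.1% for the CNOT6L probes, 54.5% and 50.7% for the CNOT7 probes, and 74.8% for NOCT. The NOCT difference was -0.62 from the empty vector but -0.21 from the non-target array, and NOCT also stood at 78.6% on the CNOT7 array. For CNOT6 the differences were -0.21 and -0.11. The CNOT6L probe at 57.1% on its own array stood at 76.2% on the NOC and 82.0% on the CNOT7 array. The other CNOT6L probe stood at 91.2% and 93.2% there, and PARN at 77.0% on the CNOT6L array. Silencing, as used below, therefore names the shRNA received and not a measured extent of decrease. Of 12 squamous and epithelial markers, 8 were above background on all arrays, namely SOX2, KRT6A, DSC3, PKP1, EPCAM, CDH1, KRT8 and KRT18. The squamous markers KRT5, TP63 and KRT14 were so on 4, 2 and 1 arrays, and DSG3 on 0. Of 6 fibroblast markers COL1A1, COL1A2 and DCN were above background on all arrays, PDGFRB on 3, and COL3A1 and LUM on 0. All 4 leukocyte and all 3 endothelial markers with a probe passed that flag on all 7, so passing it is a low bar. With 1 array per group the reading for a single shRNA could not be checked in a replicate, and precision is limited by how few arrays there are. Since the RNA came from whole cultures, fewer cells with a transcript and less RNA per cell cannot be told apart.

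CDKN1B mRNA was close to the controls upon CNOT6L silencing. The CDKN1B probe A_24_P81841, printed in 10 spots, read 1.57 with the empty vector, 1.71 with the non-target shRNA, 1.62 with PARN, 1.80 with CNOT6, 1.66 with CNOT6L, 1.69 with CNOT7 and 1.74 with NOC shRNA. The CNOT6L array thus lay between both controls. Its difference was 0.09 from the empty vector, -0.04 from the non-target shRNA and 0.02 from their mean, or 102% of the control level. The empty vector differed by -0.13 from the non-target array. The SD between the spots of an array was 0.045 to 0.063. This SD, like those given below, measures spread within an array and not between cultures. The whole range over the 7 arrays was 0.23 on the log2 scale, and among probes above background on all arrays only 1.81% had a smaller range, the median being 0.71.

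The other CDKN1B probe (A_23_P204696), printed once, moved more. It read 1.33 with the empty vector, 1.24 with the non-target shRNA, 1.53 with PARN, 1.88 with CNOT6, 1.09 with CNOT6L, 1.26 with CNOT7 and 1.43 with NOC shRNA. The CNOT6L array was the lowest of the 7 and the CNOT6 array the highest. The range of this probe over the 7 arrays was 0.78, and 56.6% of probes above background on all arrays had a smaller range. The small range of the 10-spot probe was thus not shared by both CDKN1B probes. The CNOT6L array was 0.19 below the control mean (a difference of -0.19, 87.7% of the control level) and differed by -0.25 from the mean of the other arrays of its row. The CNOT6 array was 0.59 above the control mean, or 151%, where the 10-spot probe gave 0.16, or 112%. The probes therefore had opposite signs for CNOT6L silencing and the same sign, with different sizes, for CNOT6 silencing. On the CNOT6 array the median of all probes was itself 0.11 above the controls.

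**Figure D1:**
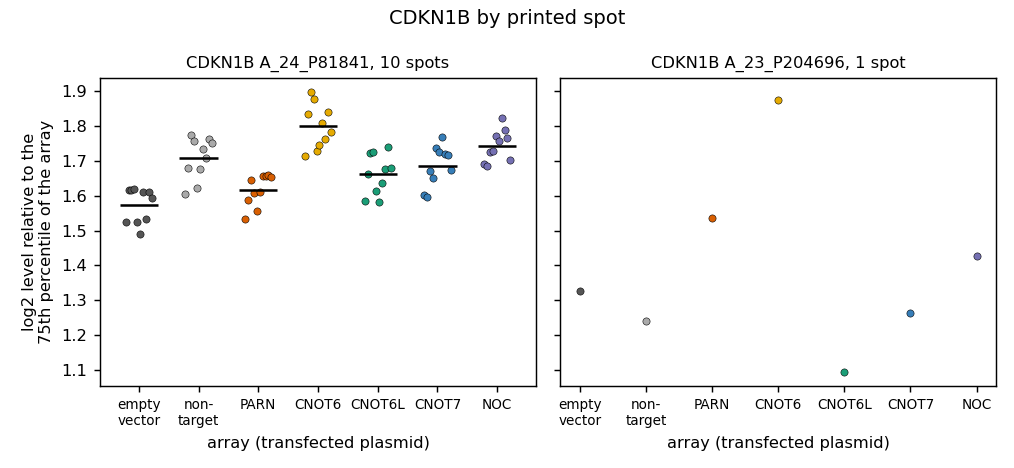
CDKN1B level in log2 units relative to the array's 75th percentile (vertical axis) on the 7 arrays (horizontal axis), with 1 dot per printed spot and a bar at the mean of the spots. Spots of the 10-spot probe on the CNOT6L array overlap those of both controls, and the single spot of the other probe is lowest there, at 1.09.

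CDKN1C, the p57 gene, was lower on the CNOT6L, CNOT7 and NOC shRNA arrays than on all others. It read 1.62 with the empty vector, 1.68 with the non-target shRNA, 1.68 with PARN and 1.76 with CNOT6 shRNA, but 1.17 with CNOT6L, 1.27 with CNOT7 and 1.16 with NOC shRNA (2 spots per array, SD between spots 0.014 to 0.19). These are the arrays of row 2, and the controls differed by only 0.06. Relative to the control mean the level was 71.6% upon CNOT6L, 76.5% upon CNOT7 and 71.2% upon NOC silencing. Within row 2 the arrays differed from the mean of the other arrays of the row by -0.04 (CNOT6L), 0.10 (CNOT7) and -0.06 (NOC), so the decrease was shared by the row, and whether slide position or the shRNAs account for it cannot be told apart.

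The INK4 genes differed in how steady they were. CDKN2A is the p16 and ARF gene. Its probe A_23_P43490 read 4.30 with the empty vector, 4.39 with the non-target shRNA, 4.48 with PARN, 4.59 with CNOT6, 4.30 with CNOT6L, 4.31 with CNOT7 and 4.29 with NOC shRNA. PARN and CNOT6 shRNA arrays were the highest, and row 2 lay beside the empty vector. The probe A_33_P3411628 had a range of only 0.14, from 2.51 with NOC shRNA to 2.65 with CNOT6L shRNA, a range smaller than that of all but 0.202% of probes above background. Both probes carry the accession of 1 CDKN2A transcript, so that the p16 and ARF starts shown above were not separated.

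CDKN2B, the p15 gene next to CDKN2A, had the largest range of the members, 1.04. It read -2.38 with the empty vector, -2.99 with the non-target shRNA, -2.44 with PARN, -2.71 with CNOT6, -3.27 with CNOT6L, -3.42 with CNOT7 and -3.03 with NOC shRNA. The controls themselves were 0.61 apart, and row 2 lay below row 1, for NOC by only a small step below the non-target array. The CNOT7 array was 1.04 below the empty vector (difference -1.04) but only 0.43 below the non-target array (difference -0.43), so a 2-fold decrease was seen against 1 control and not against the other.

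CDKN2C (p18) and CDKN2D (p19) were flat. CDKN2C read -1.59 with the empty vector, -1.48 with the non-target shRNA, -1.38 with PARN, -1.36 with CNOT6, -1.56 with CNOT6L, -1.56 with CNOT7 and -1.54 with NOC shRNA. The PARN and CNOT6 arrays were highest and row 2 lay between the controls. CDKN2D ranged from 1.82 with CNOT7 shRNA to 2.12 with the non-target shRNA, a range of 0.30 of which the controls alone covered 0.25.

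Among the D-type cyclins, differences between the controls were as large as most differences upon silencing. CCND1, which pairs with CDK4 and CDK6 and is the D cyclin most often amplified in squamous tumours, read 0.35 with the empty vector, 0.74 with the non-target shRNA, 0.82 with PARN, 0.99 with CNOT6, 0.33 with CNOT6L, 0.32 with CNOT7 and 0.64 with NOC shRNA (10 spots, SD 0.040 to 0.097). CNOT6L and CNOT7 lay beside the empty vector, NOC between the controls, and PARN and CNOT6 above both. The CNOT6 array was 0.64 above the empty vector and 0.25 above the non-target shRNA, against 0.39 between the controls.

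CCND3 read -0.22 with the empty vector, 0.44 with the non-target shRNA, -0.18 with PARN, 0.38 with CNOT6, 0.35 with CNOT6L, 0.10 with CNOT7 and 0.05 with NOC shRNA. The controls were the lowest and the highest array, 0.67 apart, and all 5 shRNA arrays fell between them. CCND2 was dim, and read -6.01 with the empty vector, -6.38 with the non-target shRNA, -5.51 with PARN, -6.43 with CNOT6, -6.15 with CNOT6L, -6.00 with CNOT7 and -6.47 with NOC shRNA. The PARN array was highest, 0.49 above the empty vector and 0.87 above the non-target shRNA, or 160% of the control mean, with an SD of 0.019 between the 2 spots of the PARN array and of 0.50 on the non-target array.

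RB1, the target of the cyclin D kinases, was the member that was higher on all arrays of row 2. It read 1.74 with the empty vector, 1.87 with the non-target shRNA, 1.87 with PARN and 2.01 with CNOT6 shRNA, then 2.33 with CNOT6L, 2.27 with CNOT7 and 2.46 with NOC shRNA. The SD between the spots of an array was 0.036 to 0.097, and 9, 8 and 7 of the 10 spots were used on the CNOT6L, CNOT7 and NOC arrays after outlier spots were left out. Relative to the control mean this was 145% upon CNOT6L, 138% upon CNOT7 and 158% upon NOC silencing. Within row 2 the differences from the other arrays of the row were -0.03, -0.13 and 0.16.

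**Figure D2:**
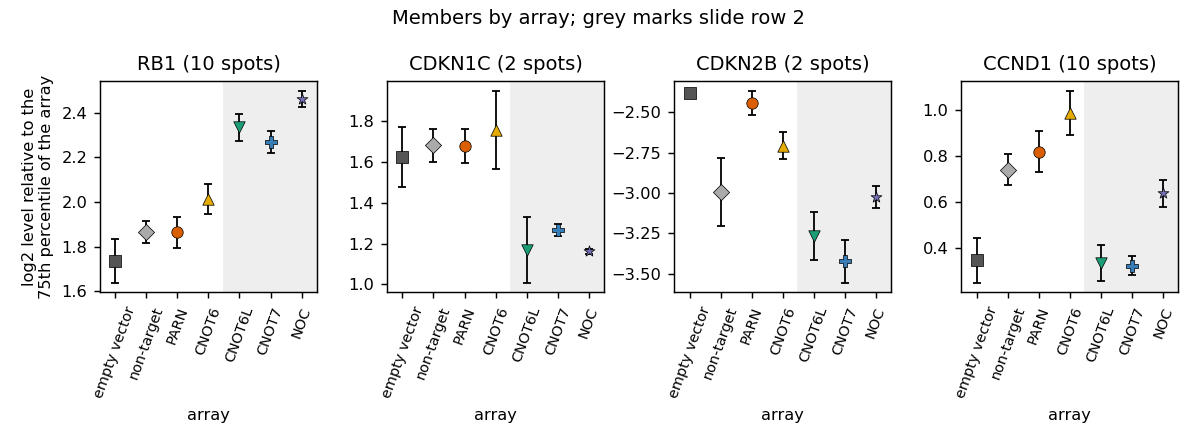
Level of RB1, CDKN1C, CDKN2B and CCND1 in log2 units relative to the array's 75th percentile (vertical axes, each with its own scale) on the 7 arrays (horizontal axis). Symbols are means of the printed spots, bars their SD, and grey marks slide row 2, where RB1 is higher (2.27 to 2.46) and CDKN1C lower (1.16 to 1.27) than on all arrays of row 1.

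A member was called changed where it differed at least 2-fold from the empty vector and from the non-target array in the same direction. Upon PARN silencing 0 of 12 probes were called higher and 0 lower, where the rule called 0.292% and 0.495% of all 42405 gene probes. For CNOT6 the counts were again 0 and 0, against 0.384% and 0.288% of all probes. For CNOT6L they were 0 and 0, against 0.271% and 0.773%. For CNOT7 they were 0 and 0, against 0.391% and 0.962%, and for NOC 0 and 0, against 0.502% and 1.27%. At these shares less than 1 called member would be read from the background in each comparison, so a count of 0 says little about the members as a group. Between the controls 0 of 12 members differed 2-fold, and the empty vector was 2-fold higher for 16.6% and lower for 0.67% of all probes. These shares include probes below background on the dimmer control array. All 12 members were above background on both, so the shares are not a like comparison for them. The median difference of the 12 probes from the control mean was 0.10 upon PARN, 0.17 upon CNOT6, -0.03 upon CNOT6L, -0.03 upon CNOT7 and -0.05 upon NOC silencing, beside 0.00, 0.11, -0.02, -0.07 and -0.05 over all probes.

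**Figure D3:**
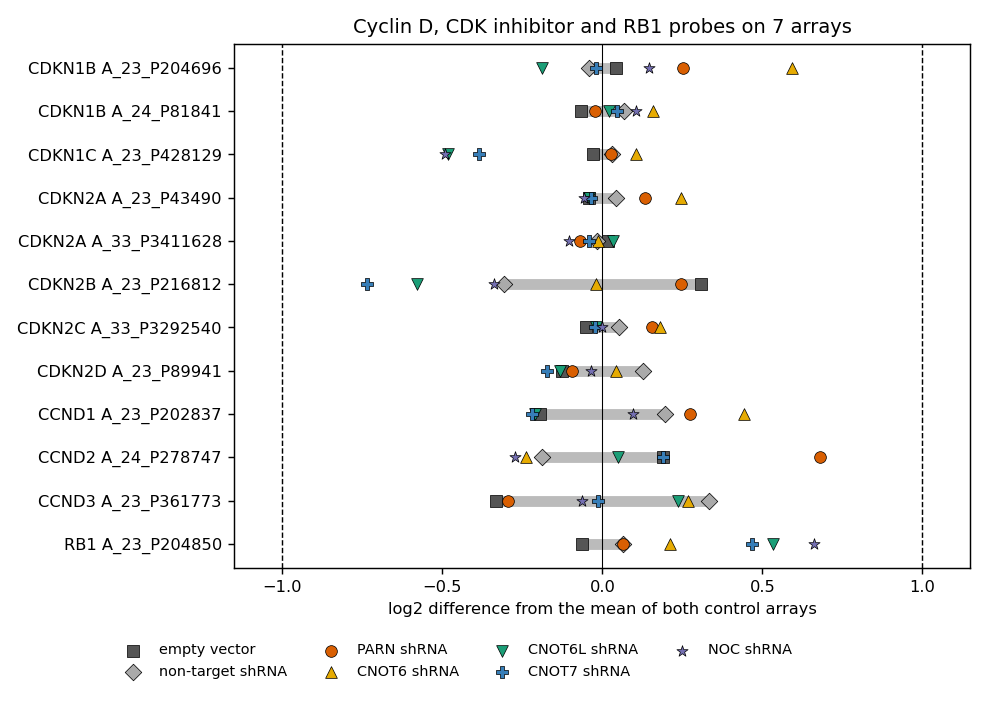
Difference of each array from the mean of both control arrays in log2 units (horizontal axis) for the 12 member probes (vertical axis); grey bars span the controls and dashed lines mark a 2-fold difference. All 60 differences of the shRNA arrays lie within the 2-fold lines, and CDKN1C and RB1 separate the CNOT6L, CNOT7 and NOC arrays from the rest.

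The only contrast with replicate arrays sets the 5 shRNA arrays against the 2 controls, so that its error reflects how much unlike shRNAs, and unlike control plasmids, differ among themselves. By limma 0 of 12 member probes passed an adjusted p of 0.05, as did 0 of all 38004 probes tested (0% called), while 1 member and 1425 probes in all had an unadjusted p below 0.05. The member was RB1, 0.39 higher (SE 0.17) with an unadjusted p of 0.0452 and an adjusted p of 0.999992 by limma, and the smallest adjusted p over all probes was 0.476. CDKN1B gave 0.06 (SE 0.11) for the 10-spot probe and 0.16 (SE 0.19) for the other. With slide row as a term in this fit, again 0 of 12 member probes were called. RB1 was then only 0.14 higher (SE 0.12), and the single-spot CDKN1B probe 0.42 higher (SE 0.16). Row 2 held no control, so that fit sets only the PARN and CNOT6 arrays against the controls. The RB1 difference of 0.39 thus came mostly from the arrays of row 2.

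The step between slide rows was then set against the spread among the shRNA arrays, as a contrast of CNOT6L, CNOT7 and NOC with PARN and CNOT6 shRNA arrays in a fit that also held the controls. CDKN1C was the only member called, lower by 0.52 on the log2 scale (difference -0.52, SE 0.097, limma adjusted p = 0.0327), where 3.9% of all probes were called. RB1 was 0.42 higher (limma adjusted p = 0.0722), CDKN2B gave -0.67 (limma adjusted p = 0.130), CCND1 -0.47 (limma adjusted p = 0.129) and the single-spot CDKN1B probe -0.44 (limma adjusted p = 0.116). The CDKN1C call was lost in the fit without any one of the 5 shRNA arrays (limma adjusted p from 0.111 to 0.149 without CNOT6L, CNOT7 or NOC). The call was also lost with the deposited table of processed values (limma adjusted p = 0.141). That table is centred per probe, so limma's trend could not follow signal level there, and this loss is not a separate check of the signals. The sign of the CDKN1C contrast turned where arrays were not scaled to each other (0.53). More members were called in other fits: 3 (CDKN1C, CDKN2B and RB1) without the empty vector and 3 without the non-target array (limma adjusted p from 0.0171 to 0.0421 for these), and 6 with normexp. Without scaling 7 members were called, with 18686 of 38004 probes in all, and with normexp 13497 of 38004 probes were. The fits without a control array also called a larger share of all probes than 3.9%, as given below. By plain overlap, 1 of 12 members had all of row 2 above row 1 (RB1) and 2 had it below (CDKN1C and CDKN2B), against 9.84% and 16.2% of the probes above background on all arrays. The shares are near those of all probes. The CNOT6 shRNA array was the highest of the 7 for 6 of the 12 members and for 28.3% of all these probes.

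Partners of these genes in G1/S control showed 1 call by the 2-fold rule. Of 22 such genes (CDK2, CDK4, CDK6, E-type cyclins, CDKN1A, the RB relatives, E2F and DP factors, CDC25A and the CDK-activating kinase), CDK2, the partner of cyclin E and a main target of p27, was lower upon CNOT6 silencing. CDK2 read -2.58 with the empty vector, -2.42 with the non-target shRNA, -2.62 with PARN, -3.80 with CNOT6, -2.48 with CNOT6L, -2.27 with CNOT7 and -2.62 with NOC shRNA (10 spots, SD 0.044 to 0.11). The CNOT6 array stood alone, with a difference of -1.30 from the control mean, and the 6 others lay between -2.62 and -2.27. The difference was -0.82 with normexp background correction, where it was below 2-fold against both controls. Upon CNOT6 silencing the 2-fold rule called 0.288% of all probes lower. The cause of the CDK2 difference was not tested. For each gene of this and the other lists only the probe with the highest mean signal was read. Other probes of a gene were not counted.

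In the other lists 0 genes were called by the 2-fold rule for any shRNA. These were 15 regulators of p27 (its ubiquitin ligase subunits, FOXO factors and others) and 20 E2F targets in DNA replication or the cell cycle. The last list held 8 genes beside CDKN2A or CDKN1C. E2F1, CCNE1 and CCNE2 were E2F targets that were also among the G1/S partners. The median difference of the p27 regulators from the control mean was 0.15 upon CNOT6L silencing and that of the E2F targets -0.00, beside -0.02 over all probes. For the p27 regulators it was 0.08 upon CNOT7 and 0.14 upon NOC silencing, beside -0.07 and -0.05 over all probes. Upon PARN and CNOT6 silencing it was -0.04 and 0.05, beside 0.00 and 0.11. The higher median was thus shared by all of row 2. The largest differences upon CNOT6L silencing in all lists were those of E2F2 (-0.58), E2F8 (-0.58) and CCNE2 (0.52). E2F2, an activating E2F, read 1.81 and 1.75 on the control arrays, 2.09 with PARN, 1.98 with CNOT6, 1.20 with CNOT6L, 1.29 with CNOT7 and 1.36 with NOC shRNA. It was thus low on all of row 2, as CDKN1C was. CCNE2, a cyclin E gene, read -0.52 and -0.30 on the control arrays, -0.60 with PARN, -0.39 with CNOT6, 0.11 with CNOT6L, -0.01 with CNOT7 and 0.21 with NOC shRNA, high on all of row 2.

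By limma 0 genes of these lists were called between the 5 shRNA and the 2 control arrays. In the contrast of row 2 with the PARN and CNOT6 arrays, 3 of 22 G1/S partners were called, 2 higher and 1 lower. Over all 38004 probes tested this contrast called 3.9%. E2F2 was lower (-0.75, SE 0.10, limma adjusted p = 0.0148), E2F7, a repressive E2F, was higher (0.63, SE 0.13, limma adjusted p = 0.0439), and CCNE2 was higher (0.60, SE 0.13, limma adjusted p = 0.0486). Of 20 E2F targets 2 were called, both higher: CCNE2 again and MCM6, a subunit of the replicative helicase (0.54, SE 0.11, limma adjusted p = 0.0368). Of the 15 p27 regulators 0 were called (smallest limma adjusted p = 0.129). Of the 8 neighbours 1 was called, MTAP, a methionine salvage enzyme gene beside CDKN2A (0.55, SE 0.12, limma adjusted p = 0.0457). Each of these 5 genes lost its call in at least 6 of 12 alternatives, with limma adjusted p up to 0.206, and E2F2 turned to 0.29 where arrays were not scaled. The same confounding with slide row applies. CCNE2 and E2F7 had 2 probes each and MTAP had 3, of which only the brightest was read.

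**Figure D4:**
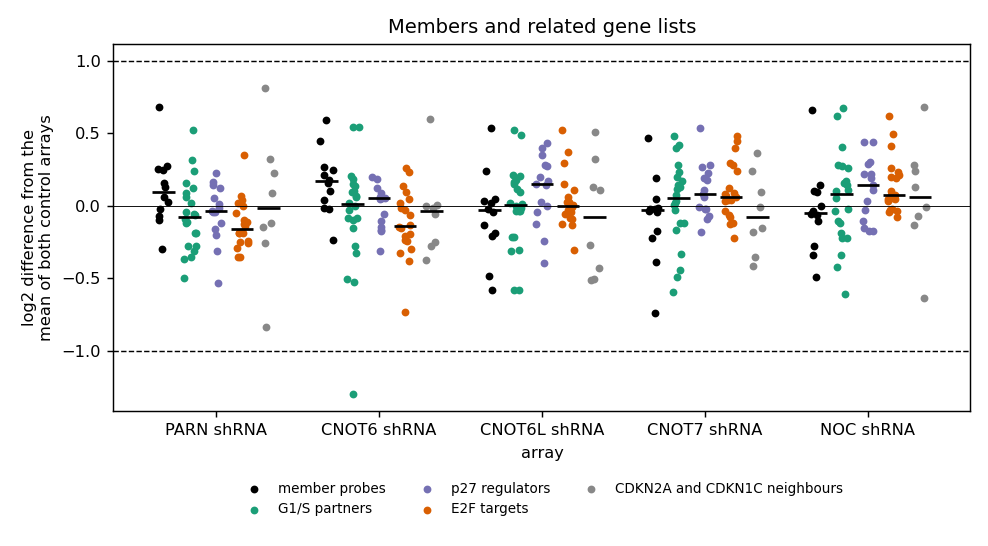
Difference from the mean of both control arrays in log2 units (vertical axis) on each shRNA array (horizontal axis) for the 12 member probes and the genes of 4 lists, with 1 dot per gene and bars at list medians; dashed lines mark a 2-fold difference. CDK2 on the CNOT6 array, at -1.30, is the only dot beyond them.

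The probes whose pattern over the 7 arrays was most like that of CDKN1B (10-spot probe) were those of DUSP8, DECR2 and ELOVL1, with Pearson r of 0.947, 0.945 and 0.941. They were found among 14020 probes, of which 1% had an r above 0.825. For CCND1 they were LDHAL6A, PRR7 and CC2D1B, with r of 0.983, 0.982 and 0.981, where 1% of probes had an r above 0.885. All 7 points share the slide, the scaling and the row, and each is 1 array, so these values are a description.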

How the data were processed

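The authors scanned 7 Agilent single-colour arrays of NCI-H520 RNA and, per the file headers, extracted spot intensity values with Agilent Feature Extraction 10.7.3.1; the processed signal is background-corrected, and the settings of that step are not given in the sources used here. The deposited series table holds log2 values, found to be the same signals shifted by 1 constant per array and centred per probe on the median of 7 arrays (100% of probes above background within 0.02 on the log2 scale). From the deposited processed signal, control spots and outlier spots were left out, log2 was taken, the 75th percentile of each array subtracted and spots of a probe averaged. Accessions were paired with symbols through RefSeq tables for 24827 of 42405 gene probes. Every member probe was named, and of the listed genes those called and the 3 with the largest difference upon CNOT6L silencing; the genes called only in the slide row contrast were named after their values were seen.

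A call needed a 2-fold difference from both controls in the same direction, with the brighter side well above background. The arrays that hold replicates were compared with limma 3.58.1 in R 4.3.3 (lmFit and eBayes with trend, two-sided, Benjamini-Hochberg over the 38004 probes that 2 or more arrays measured well above background). Python 3.11.15, numpy 2.4.6 and pandas 2.3.3 did the rest. Nothing in the labels ties samples to separate cultures beyond 1 per group, so p-values measure the spread between these arrays. The calls and the limma fit were tested on simulated data. Those data had independent noise, with no step between slide rows and no gap between controls. They therefore do not show how the calls or the fit behave where slide row and shRNA are confounded. The members and gene lists were chosen with earlier results of these data known, and the slide row contrast and the count by row were added after seeing the data. Other settings tried were quantile normalization, no scaling, normexp, the series table, outlier spots kept, other fold thresholds and filters, and leaving out each array. Slide row was also tried as a term in the comparison of shRNA with control arrays.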

Additional observations from a re-analysis of the deposited data

How the results depend on the processing

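Over 27 results, 305 alternative values were computed, of which 272 were counted as the same. Counts could differ by up to 1.5 times, and differences by less than the SD between the controls. Row contrasts had to stay on their side of the threshold, and a turned sign was counted only where either fit passed it. Some of the 272 values could not have differed, so their number overstates how stable the results are. Where 0 members were called at 2-fold, a stricter fold threshold must also call 0. The background filters could not change these counts either, since every member was above background on all arrays. Leaving out a control array cannot move the size of a row contrast, only its error and p-value. The count of members called stayed at 0 for each shRNA and direction under each alternative, with these exceptions. Without the non-target array 1 probe (CDKN2B) was lower upon CNOT7 silencing, so that leaving out a control gave 0 to 1 there, and at 1.5-fold 1 probe (RB1) was higher upon NOC silencing. Between the controls 1 probe differed 2-fold without scaling and 2 differed at 1.5-fold. The count of members with row 2 outside row 1, 3 in the values reported, was 6 without scaling. It was 4 with quantile normalization, normexp or outlier spots kept, which counted as the same. The CDKN1B difference upon CNOT6L silencing, 0.02, was 0.42 without scaling and -0.19 with the single-spot probe, and ran from -0.04 to 0.09 without 1 control. Unscaled arrays differed from the controls by a median over all probes of -0.90 (CNOT6) to 0.46 (CNOT7), which by construction shifts each member.

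The row contrast of CDKN1C (-0.52) was -0.46 with the series table, -0.56 to -0.48 without 1 array and 0.53 without scaling. Leaving out PARN or CNOT6 left 1 array in that arm, assumed to vary like the others. Without scaling the contrast also turned to 1.04 for CDKN1B (10-spot probe), 0.81 for CDKN2A (A_23_P43490), 0.86 for CDKN2C and 0.96 for CDKN2D. It likewise turned positive, without passing the threshold, for CCND1 (0.57), CCND2 (0.81), CDKN2B (0.38) and the single-spot CDKN1B probe (0.60). With normexp 13497 probes passed it, 0 passed with the deposited values, and without 1 of the 5 shRNA arrays 45 to 137, whereas without the empty vector 5210 and without the non-target array 5097 did, beside 1482 in the values reported. The limma comparison of 5 with 2 arrays called 0 members without any 1 array. With limma, a lone shRNA array against the controls called 0 members, with 0 to 2 at an unadjusted p below 0.05, but these fits take their spread from only 2 unlike control arrays and say little. Of 12 member differences of 0.3 or more, 0 changed sign under quantile normalization, normexp, the series table or kept outlier spots, and 3 did without scaling. No paired analysis was possible because each group had 1 array and all carry replicate number 1. CCND2 was the member nearest to background, where spots differed most.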

Other observations

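The control arrays differed from each other for some genes near or beside the members. KCNQ1OT1, the antisense transcript of the imprinted CDKN1C domain, read -1.56 with the empty vector and -3.47 with the non-target shRNA, -1.71 with PARN, -1.92 with CNOT6, -3.03 with CNOT6L, -2.67 with CNOT7 and -2.65 with NOC shRNA, so that the empty vector was 1.91 higher on the log2 scale. CDK6, the partner of the D-type cyclins, was 0.98 higher with the empty vector (2.27) than with the non-target shRNA (1.30). These genes were chosen after their values were seen.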
